A study of Homo sapiens with 72 samples.

Results

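Aminoacyl-tRNA synthetases are the enzymes that join each amino acid to its tRNA, and human cells keep separate nuclear genes for the enzymes of the cytosol and for those of the mitochondrion. The genes described here were the rows of the gene count table that carry the symbol of a cytosolic enzyme (names ending in 1, plus FARSA and FARSB, the subunits of the phenylalanyl enzyme) or of a mitochondrial enzyme (names ending in 2). There were 35 such genes among 44659 gene rows, 19 cytosolic and 16 mitochondrial. The cells were A375, an established human melanoma line, and the libraries were QuantSeq libraries, which count reads from the 3′ end of polyadenylated mRNA, made from cytoplasmic RNA.

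There were 72 libraries in 24 groups of 3 replicates. Cells labelled siCTU2 had been transfected for 42 h with siRNAs against CTU2, a subunit of the enzyme that thiolates the wobble uridine of some cytosolic tRNAs, and were set against cells given the control siRNA siGL2. Cells labelled mQ had been kept for 18 h in medium without glutamine and were set against cells in control medium (pQ). Every condition was sampled at 0, 3 and 5 h in an arm given triptolide at 25 µM, which stops transcription (the T arm), and in an arm given triptolide with cycloheximide at 100 µg/ml, which stops translation elongation (the TCHX arm). Because the siRNA and the medium experiments each had their own control, every change below is against siGL2 or pQ of the same arm and time, against the same condition at 0 h, or of the TCHX against the T arm of the same condition.

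The libraries held 5987692 to 15534331 gene counts. CTU2 was at 0.133 to 2.95 CPM (counts scaled to 1000000 per library) in 17 of the 18 siCTU2 libraries and at 13.01 to 38.7 CPM in the other conditions. The library labelled siCTU2 TCHX 5 h replicate 3 went against its label, with CTU2 at 10.4 CPM. This library, mQ T 5 h replicate 3 and pQ TCHX 0 h replicate 3 also had 19896 to 20364 genes with a count, against 15507 to 17495 in the other 69. Summed markers of other cell types were at 37.9 to 39.5 CPM in these libraries, against at most 1.25 CPM elsewhere. In the mQ and pQ libraries most of that sum came from PTPRC (31.1 and 31.8 CPM) and KRT1 (6.61 and 6.69 CPM). KRT5 and HBB were at 0 CPM in both, so the sum does not show a general rise of such markers. At 5 h the third replicates of several groups stood apart from the other two, so values at 3 and 5 h are from all replicates unless they are said to be without replicate 3. The melanocyte lineage regulator SOX10 was present at 0 h (205 to 424 CPM), as were S100B and VIM. Of the pigment genes, MLANA (0 to 0.866 CPM) and TYR (0 to 1.16 CPM) were near absent at 0 h. PMEL was low (2.21 to 9.75 CPM) and DCT was present (17.5 to 111 CPM).

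The cytosolic enzymes act in the translation of most cellular proteins. Several of them, among them EPRS1 (which charges 2 amino acids), IARS1, KARS1, LARS1, MARS1, QARS1 and RARS1, are bound together in the multisynthetase complex. The mitochondrial enzymes charge the tRNAs encoded by mitochondrial DNA and serve the translation of a few subunits of the respiratory chain; GARS1 and KARS1 are known to make both the cytosolic and the mitochondrial form of their enzyme from a single gene. Many genes of cytosolic synthetases are known targets of ATF4, the transcription factor of the amino acid response, which binds composite sites of the form TGATGNAA.

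The motif TGATGNAA was searched on both strands from 250 bases before to 50 bases after the gene start in the RefSeq promoter table (GRCh38.p14). It was found in 7 of the 16 cytosolic members with an entry (43.8%), in 1 of 14 mitochondrial members (7.14%) and in 1270 of 35116 promoters in all (3.62%). Members are counted by gene, matched if any of their promoters was, and some had 2 promoters. The share in all is counted by promoter, so the units differ. The stricter form TGATGCAA, which is contained in the first, was found in 6 of 16 cytosolic members (37.5%), in 0 of 14 mitochondrial members and in 0.866% of all promoters. LARS1, VARS1, YARS1, AARS2 and VARS2 had no entry. The 8 matches are shown, 5′ to 3′ on the strand of the gene, because the members that carry them can be compared with the others when glutamine was withdrawn. Capitals mark the match, and TTGCATCA is TGATGCAA read on the opposite strand.
AARS1: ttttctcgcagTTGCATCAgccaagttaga
CARS1: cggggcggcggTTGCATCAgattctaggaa
GARS1: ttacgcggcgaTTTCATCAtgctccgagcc
IARS1: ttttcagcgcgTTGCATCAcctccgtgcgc
MARS1: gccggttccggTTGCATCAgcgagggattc
NARS1: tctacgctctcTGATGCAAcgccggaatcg
TARS1: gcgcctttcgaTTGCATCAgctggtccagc
YARS2: atccacactgcTGATGGAAaaattaagttt

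These windows lie at chr16:70289675-70289704 (AARS1, minus strand), chr11:3057407-3057436 (CARS1, minus), chr7:30594834-30594863 (GARS1, plus), chr9:92293692-92293721 (IARS1, minus), chr12:57488053-57488082 (MARS1, plus), chr18:57621804-57621833 (NARS1, minus), chr5:33440956-33440985 (TARS1, plus) and chr12:32756076-32756105 (YARS2, minus). A match is a stretch of letters and not a measured binding site.

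In the GENCODE annotation of GRCh38 the tested cytosolic members had a median of 17 exons and a median 3′ UTR of 297 bases, and the tested mitochondrial members a median of 13.5 exons and a 3′ UTR of 730.5 bases. The shortest gene structures were mitochondrial. MARS2, the mitochondrial methionyl enzyme, has 1 exon (chr2:197705369-197708395, plus strand), and PARS2, the mitochondrial prolyl enzyme, has 2 exons of which 1 is coding (chr1:54756898-54764523, minus strand). The last exon of MARS1 overlaps the last exon of DDIT3 on the opposite strand, and that of HARS2 overlaps ZMAT2 on the same strand. That of EARS2 overlaps GGA2 on the same strand, and those of HARS1 and WARS1 overlap WDR55 and a gene with no symbol on the opposite strand. The strand setting of the counting is not given in the sources used here, so reads of MARS1 and DDIT3 cannot be told apart. How far the overlaps of HARS2, EARS2, HARS1 and WARS1 changed their counts was not tested.

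Of the 35 members, 31 were measurable. IARS1 had 0 to 6 counts in a library, VARS1 0 to 3, SARS2 0 to 1 and VARS2 0 to 2, and these 4 were not tested; VARS1, VARS2 and SARS2 have further copies under the same symbol in the count table, as has CARS1 (1069 counts over all libraries against 21904), so their reads may be split. The 17 cytosolic and 14 mitochondrial members that remained were tested in edgeR together with all other genes, and a member is called when its Benjamini-Hochberg adjusted p over all genes was under 0.05. Log2 changes are given with their standard error (SE). The counts come from bulk cultures, in which fewer cells of a kind and less RNA per cell cannot be told apart.

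The mQ against pQ comparison at 0 h asks how 18 h without glutamine changed the mRNAs before transcription was stopped. The cytosolic set rose: 11 of 17 tested members were called higher and 0 lower, against 12.5% of all 12374 tested genes called higher and 12.4% lower. All 17 estimates were positive (median 0.84 on the log2 scale, against 0.01 for all genes). In the mitochondrial set 0 of 14 members were called higher and 2 lower, and the median change was -0.03. The plot of log2 changes at 0 h sets both comparisons beside each other.

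**Figure D1:**
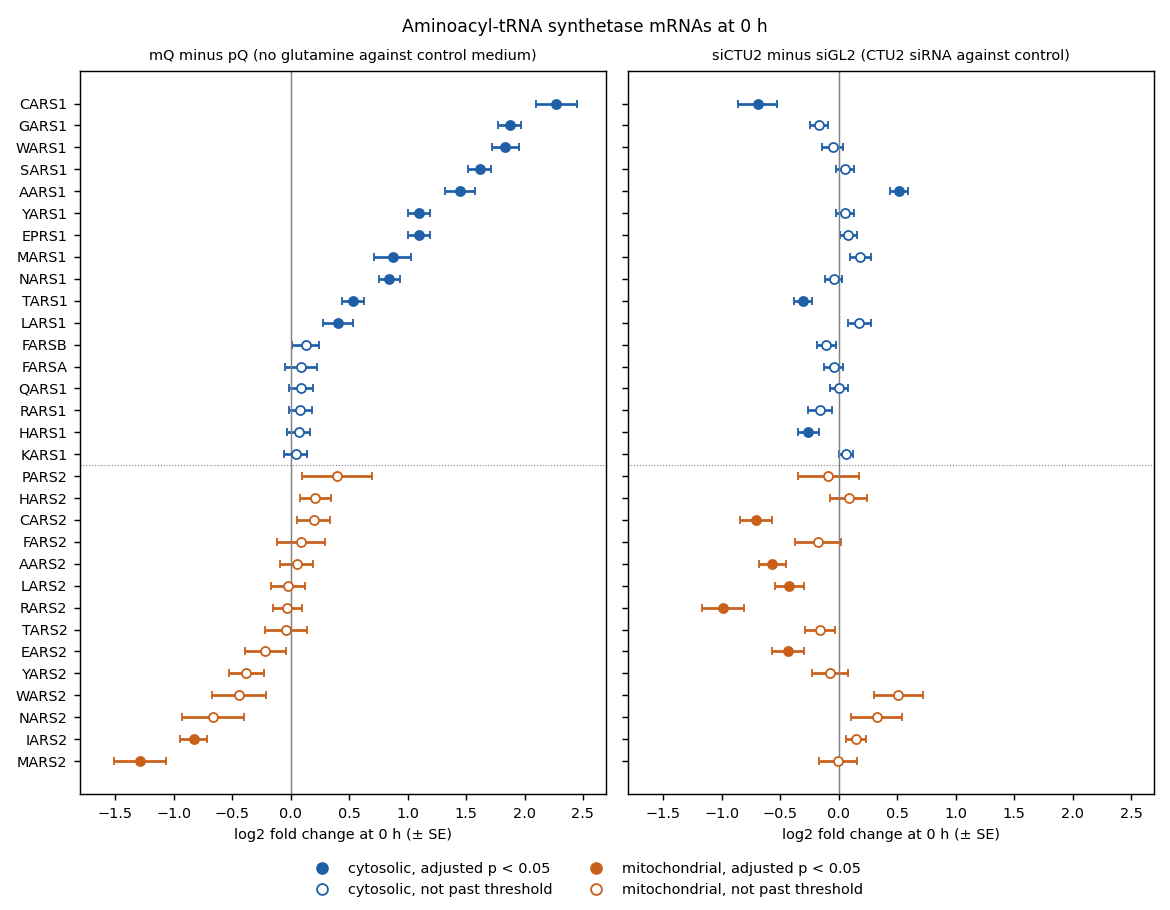
Log2 change at 0 h in the T arm (horizontal axis) for each tested member (rows), in mQ against pQ and in siCTU2 against siGL2, with bars of 1 SE from edgeR. Filled points passed an adjusted p of 0.05. The cytosolic members reach 2.27 (CARS1) in mQ, while the mitochondrial members lie between -1.29 (MARS2) and 0.40 (PARS2).

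GARS1, the glycyl enzyme of both compartments (chr7:30580533-30634033, plus strand), was at 530, 602 and 568 CPM in the 3 mQ libraries and at 161, 156 and 165 CPM in the 3 pQ libraries. The groups did not overlap, and the log2 change was 1.87 (SE 0.10, edgeR adjusted p = 3.76e-07). SARS1, the seryl enzyme, was at 387, 421 and 400 CPM in mQ and at 138, 133 and 137 CPM in pQ. Every mQ library was again above every pQ library, with a log2 change of 1.62 (SE 0.10, edgeR adjusted p = 9.91e-07). WARS1, the tryptophanyl enzyme, was at 366, 404 and 460 CPM in mQ and at 129, 117 and 112 CPM in pQ, a log2 change of 1.84 (SE 0.12, edgeR adjusted p = 1.68e-06) without overlap.

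CARS1, the cysteinyl enzyme, was at 68.6, 72.5 and 68.0 CPM in mQ and at 19.7, 13.4 and 12.0045 CPM in pQ. It had the largest change of the members at 0 h, 2.27 (SE 0.17, edgeR adjusted p = 7.53e-06), and the groups did not overlap. YARS1, the tyrosyl enzyme, was at 333, 332 and 330 CPM in mQ and at 160, 167 and 156 CPM in pQ (log2 change 1.095, SE 0.09, edgeR adjusted p = 1.95e-05). EPRS1, which charges glutamate and proline, was at 359, 329 and 361 CPM in mQ and at 170, 172 and 167 CPM in pQ (log2 change 1.09, SE 0.09, edgeR adjusted p = 2.21e-05). For both genes the lowest mQ library lay well above the highest pQ library. The other called cytosolic members were AARS1 (1.45, SE 0.13), MARS1 (0.87, SE 0.16), NARS1 (0.84, SE 0.09), TARS1 (0.53, SE 0.09) and LARS1 (0.40, SE 0.13, edgeR adjusted p = 0.04).

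**Figure D2:**
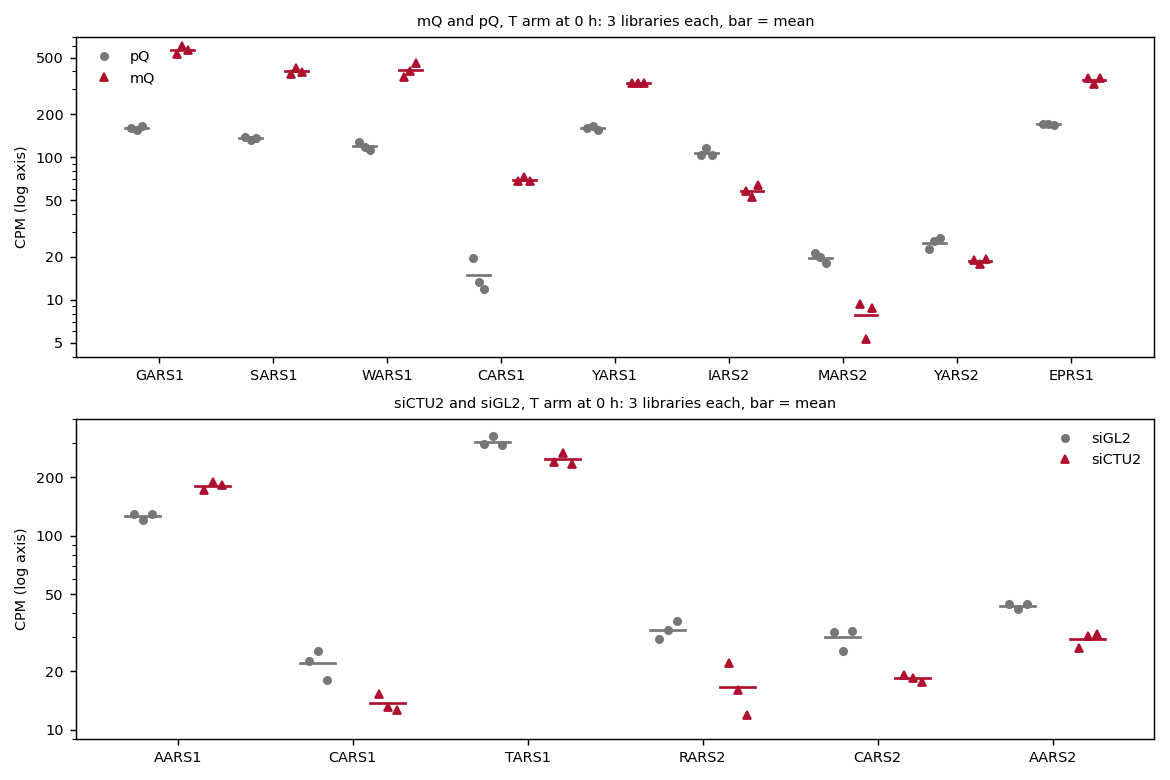
CPM of each library at 0 h in the T arm (vertical log axis) for the members given by library in the text, mQ and pQ above and siCTU2 and siGL2 below, with 1 symbol per library and a bar at the mean of 3. GARS1, SARS1, WARS1, CARS1, YARS1 and EPRS1 are higher in every mQ library than in any pQ library, and IARS2, MARS2 and YARS2 are lower.

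The remaining 6 cytosolic members did not pass the test, and their changes were 0.13 (FARSB), 0.09 (FARSA), 0.09 (QARS1), 0.08 (RARS1), 0.07 (HARS1) and 0.04 (KARS1). QARS1 is the glutaminyl enzyme, which uses the withdrawn amino acid. The members of the multisynthetase complex were called higher in 3 of 6 cases (median 0.25), and the cytosolic members outside it in 8 of 11 (median 1.095). Of the genes that serve both compartments, GARS1 was called and KARS1 was not.

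All 6 tested cytosolic members with TGATGNAA in the promoter window were called higher (AARS1, CARS1, GARS1, MARS1, NARS1 and TARS1; range 0.53 to 2.27, median 1.16). Of the 9 without a match in the window, 3 were called (EPRS1, SARS1 and WARS1; median 0.09), as were both members with no entry. YARS2, the mitochondrial member with a match, had a change of -0.38. ATF4 mRNA itself was higher by 2.61 (SE 0.12, edgeR adjusted p = 2.68e-07) in mQ. MARS1 was at 181, 138 and 226 CPM in mQ and at 92.0, 108 and 108 CPM in pQ, and DDIT3, the gene that overlaps its last exon, was at 225 ± 46.5 CPM (SD, n = 3) in mQ and 26.2 ± 1.07 CPM in pQ, so how much of the MARS1 change came from reads of DDIT3 was not tested.

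Among the mitochondrial members, IARS2, the isoleucyl enzyme, was at 58.0, 53.0 and 64.1 CPM in mQ and at 103, 116 and 103 CPM in pQ, a log2 change of -0.83 (SE 0.11, edgeR adjusted p = 0.000554). MARS2 was at 9.40, 5.33 and 8.77 CPM in mQ, from 76, 56 and 78 counts, and at 21.4, 19.8 and 18.1 CPM in pQ, from 199, 203 and 223 counts. Its log2 change was -1.29 (SE 0.22, edgeR adjusted p = 0.00206). For both genes every mQ library lay below every pQ library. YARS2, the tyrosyl enzyme, was at 18.9, 17.8 and 19.4 CPM in mQ and at 22.9, 25.8 and 27.0 CPM in pQ, and although these values did not overlap the change of -0.38 did not pass (SE 0.15, edgeR adjusted p = 0.083).

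NARS2 (-0.67), WARS2 (-0.44) and EARS2 (-0.22) had negative changes that did not pass the test. TARS2 (-0.04), RARS2 (-0.03), LARS2 (-0.02), AARS2 (0.05) and FARS2 (0.09) lay close to 0, and CARS2 (0.20), HARS2 (0.21) and PARS2 (0.40) were positive without passing. The TCHX arm gave a second set of 0 h libraries, in which 9 cytosolic members were called higher and 0 mitochondrial members either way. The share of all genes called in that arm was not taken, so these counts cannot be set beside the 12.5% and 12.4% of the T arm. In the TCHX arm MARS2 was at 14.6, 14.1 and 16.3 CPM in mQ and at 15.2, 23.7 and 7.70 CPM in pQ, the last being the library that stood apart. The change of MARS2 in that arm was -0.02 (edgeR adjusted p = 0.98), or -0.35 (edgeR adjusted p = 0.22) without that library, and the changes of IARS2 (-0.20, adjusted p = 0.61), CARS1 (1.16, adjusted p = 0.09) and LARS1 (0.45, adjusted p = 0.11) did not pass there either. Without pQ TCHX 0 h replicate 3 the TCHX arm had 1 mitochondrial member called lower.

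The summed CPM of the cytosolic members was 5089 ± 148 (SD, n = 3) in mQ and 3065 ± 38.0 in pQ, and that of the mitochondrial members 396 ± 5.35 and 473 ± 0.935. The ratio of the sums was 12.8 ± 0.545 in mQ and 6.48 ± 0.0702 in pQ, 1.98 times as high, and the 6 libraries did not overlap. On the log2 scale the ratio differed by 0.99, and by 0.67 in the TCHX arm. The ratio in siCTU2 was 8.60 ± 0.375 against 7.63 ± 0.163 in siGL2, a log2 difference of 0.17, also without overlap.

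**Figure D3:**
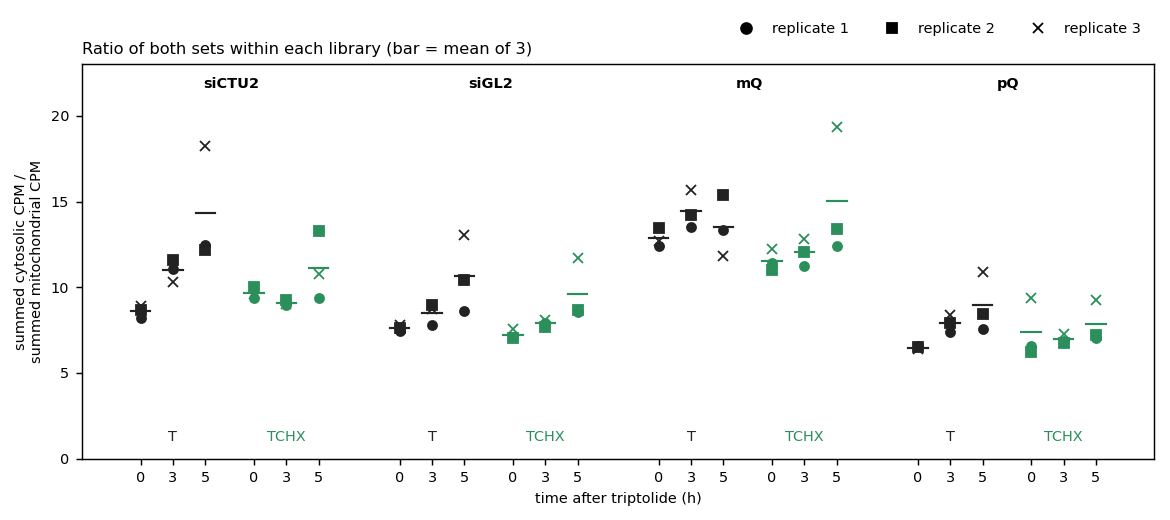
Summed CPM of the cytosolic members divided by that of the mitochondrial members (vertical axis) against time in h (horizontal axis) in each condition and arm, with 1 symbol per library and a bar at the mean of 3. At 0 h in the T arm the mQ libraries lie at 12.4 to 13.5 and the pQ libraries at 6.40 to 6.54.

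The siCTU2 against siGL2 comparison at 0 h asks how loss of the tRNA-modifying enzyme changed these mRNAs. The response differed from the one to glutamine withdrawal in its members. Of the 17 cytosolic members 1 was called higher and 3 lower, against 17.8% of all 12292 tested genes called higher and 18.2% lower, and the median change was -0.04. Of the 14 mitochondrial members 0 were called higher and 5 lower, with a median of -0.12. ATF4 mRNA changed by 0.02 and did not pass.

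AARS1, the alanyl enzyme, was at 173, 189 and 182 CPM in siCTU2 and at 130, 121 and 129 CPM in siGL2, a log2 change of 0.52 (SE 0.08, edgeR adjusted p = 3.38e-05). CARS1 was at 15.4, 13.2 and 12.6 CPM in siCTU2 and at 22.6, 25.5 and 18.0 CPM in siGL2 (-0.69, SE 0.17, edgeR adjusted p = 0.00296). TARS1, the threonyl enzyme, was at 240, 269 and 235 CPM in siCTU2 and at 296, 326 and 293 CPM in siGL2 (-0.30, SE 0.07, edgeR adjusted p = 0.00375). The groups did not overlap for any of these genes, and AARS1 was the 1 cytosolic member called higher. HARS1 was also called (-0.26, edgeR adjusted p = 0.0302). With the replicate number as a block 7 cytosolic members were called in place of 4. The share of all genes called with that block was not taken, so this count cannot be set beside the 17.8% and 18.2% given above. CARS1 lost its call in the TCHX arm (-0.05, edgeR adjusted p = 0.87), and HARS1 lost its call without siCTU2 replicate 2 or 3 or siGL2 replicate 2 or 3.

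RARS2, the mitochondrial arginyl enzyme (chr6:87513459-87590028, minus strand), was at 22.0, 16.05 and 11.9 CPM in siCTU2 and at 29.3, 32.5 and 36.5 CPM in siGL2, a log2 change of -0.99 (SE 0.18, edgeR adjusted p = 0.000285). CARS2, the cysteinyl enzyme, was at 19.2, 18.4 and 17.7 CPM in siCTU2 and at 32.1, 25.6 and 32.4 CPM in siGL2 (-0.71, SE 0.14, edgeR adjusted p = 0.0006). AARS2, the alanyl enzyme (chr6:44298731-44313347, minus strand), was at 26.6, 30.5 and 31.2 CPM in siCTU2 and at 44.5, 42.1 and 44.5 CPM in siGL2 (-0.57, SE 0.11, edgeR adjusted p = 0.000758). In all 3 genes the highest siCTU2 library lay below the lowest siGL2 library. EARS2 (-0.43, edgeR adjusted p = 0.017) and LARS2 (-0.42, edgeR adjusted p = 0.011) were also lower, the latter without a call when siCTU2 replicate 2 or siGL2 replicate 2 was left out. WARS2 (0.51) and NARS2 (0.32) had positive changes that did not pass.

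A list of 15 genes that work beside the synthetases was followed in the same fits, of which 14 were tested. In siCTU2 1 was called higher and 4 lower, against 17.8% and 18.2% of all genes. EEF1E1, a scaffold protein of the multisynthetase complex, was at 30.6, 24.2 and 22.9 CPM in siCTU2 and at 63.6, 74.0 and 58.2 CPM in siGL2 (-1.34, SE 0.13, edgeR adjusted p = 2.28e-07). All 3 genes of the mitochondrial amidotransferase, which converts glutamyl-tRNA to glutaminyl-tRNA and stands in for a mitochondrial glutaminyl enzyme, were lower as well, QRSL1 by -0.71, GATB by -0.66 and GATC by -0.70, while AIMP1, another scaffold, was higher by 0.37. In mQ 2 of the 14 were called higher, QRSL1 (0.51) and SEPSECS (0.76), and 4 lower, EEF1E1 (-0.93), MTFMT (-0.77), TSFM (-0.72) and PTRH2 (-0.49), against 12.5% and 12.4% of all genes. MTFMT formylates the mitochondrial initiator tRNA and TSFM is a mitochondrial elongation factor. AIMP2, TRNT1, DTD1, PSTK and TUFM passed in neither comparison, and AARSD1 was not tested.

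The T arm asks how fast the mRNAs were lost once transcription was stopped. Counts at 3 and 5 h were scaled to genes that met the rule of the study for stable genes (197 in the siRNA experiment and 81 in the medium experiment). The rule asks for a CPM at 3 or 5 h of at least 1.1 times that at 0 h, so the share of these genes rose at 1 of the times at least. A negative change is a loss relative to those genes. At this scaling the cytosolic members fell less than the median gene in siCTU2, siGL2 and pQ, with 1 exception in siGL2, and lay on both sides of it in mQ. Their median change from 0 to 5 h was -0.49 in siCTU2, -0.36 in siGL2, -0.57 in mQ and -0.30 in pQ, against -0.88, -0.72, -0.60 and -0.73 for all genes, and 17, 16, 10 and 17 of the 17 members lay above the median of all genes. The mitochondrial set had medians of -0.99, -0.80, -0.75 and -0.76, with 4, 4, 4 and 6 of 14 members above the median of all genes. Without replicate 3, 17, 16, 14 and 17 cytosolic members and 4, 7, 6 and 6 mitochondrial members lay above that median. The cytosolic median in mQ was then 0.31 above it, against 0.02 with all replicates, so the position of the set in mQ depends on replicate 3.

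In numbers of calls, 12 cytosolic members were called lower in siCTU2 (63.4% of all genes were), 9 in siGL2 (47.4%), 13 in mQ (43.8%) and 6 in pQ (51.8%). For the mitochondrial members the counts were 14, 9, 8 and 11. With the replicate number as a block 11 cytosolic members were called lower in pQ, and the share of all genes with that block was not taken. Without replicate 3 the cytosolic counts were 10, 13, 13 and 11 and the mitochondrial counts 13, 10, 11 and 12, against 52.7%, 52.4%, 56.1% and 58.0% of all genes. The sign of a change depends on the scaling: with TMM factors, which centre each comparison on the bulk of the genes, 0 cytosolic members were called lower in any condition and 9, 7, 0 and 7 were called higher (14.4%, 11.4%, 3.89% and 11.4% of all genes), while 5, 3, 1 and 4 mitochondrial members were called lower (20.6%, 17.2%, 7.68% and 18.6%).

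**Figure D4:**
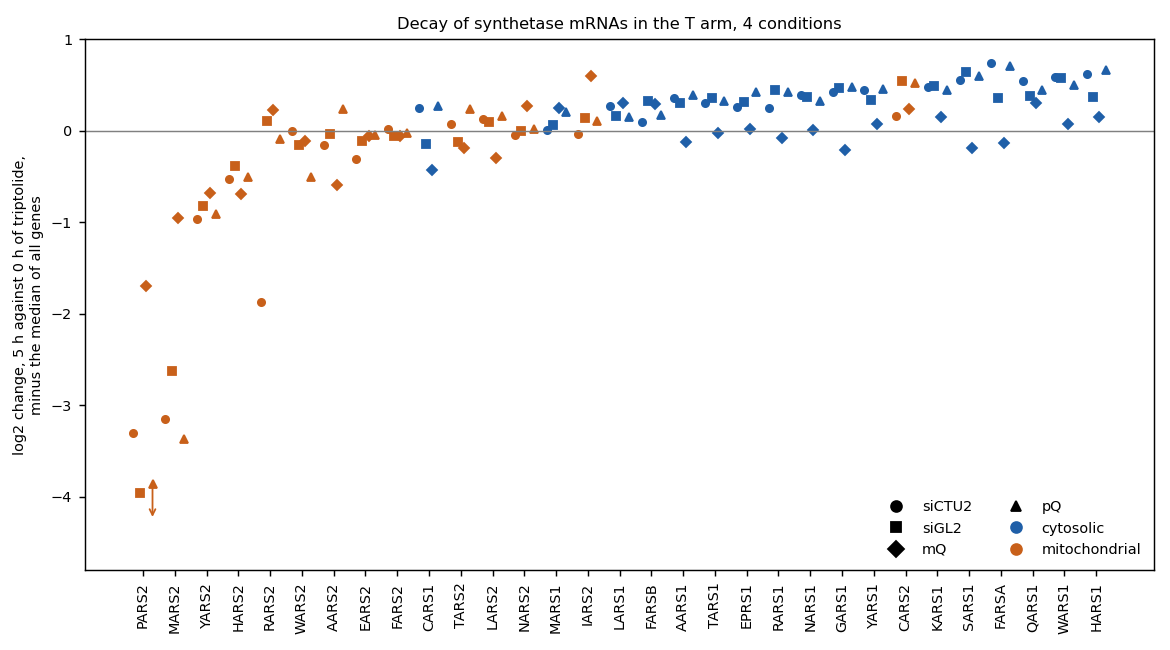
Log2 change from 0 to 5 h in the T arm minus the median of all genes of the same condition (vertical axis, stable-gene scaling) for each tested member, ordered by its mean fall, in the 4 conditions. PARS2 and MARS2 lie furthest below the line at 0, the arrow marks PARS2 in pQ as a bound because it had no count at 5 h, and all 17 cytosolic members lie above the line in siCTU2 and pQ.

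PARS2 and MARS2 had the largest falls. Of the mean scaled count of PARS2 at 0 h, 8.58%, 2.33% and 5.85% was left at 5 h in the 3 siCTU2 libraries and 1.13%, 7.27% and 2.95% in the 3 siGL2 libraries, log2 changes of -4.19 (SE 0.55) and -4.68 (SE 0.61). In mQ 0%, 0% and 56.6% was left, the last value coming from the library that stood apart, and in pQ 0%, 0% and 0%. With a floor of 3 counts per library, PARS2 in pQ was at least 24.1-fold lower at 5 h than at 0 h. The loss was already seen at 3 h, when 0% to 18.9% was left over all 4 conditions.

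Of the MARS2 level at 0 h, 24.8%, 26.4% and 21.3% was left at 3 h in siCTU2, 27.3%, 13.9% and 22.1% in siGL2, 8.39%, 12.97% and 6.98% in mQ and 17.3%, 18.8% and 9.81% in pQ. At 5 h 5.70%, 11.4% and 0.398% was left in siCTU2, 15.3%, 7.25% and 7.40% in siGL2, 23.1%, 17.7% and 58.6% in mQ and 4.08%, 9.20% and 4.09% in pQ. Every library at 3 and 5 h was thus below every 0 h library of its condition. The smallest gap was in mQ, where the third library at 5 h came near the lowest value at 0 h (68.2%). The log2 changes at 5 h were -4.04 (SE 0.56), -3.34 (SE 0.56), -1.55 (SE 0.40) and -4.10 (SE 0.50), all called in edgeR. Without replicate 3 they were -3.60, -3.26, -2.13 and -4.00, all called. YARS2 (-1.85, -1.54, -1.28 and -1.64 in the same order) and HARS2 (-1.41, -1.11, -1.28 and -1.24) were also called lower in all 4 conditions, as were AARS2, EARS2 and LARS2. So were the cytosolic members EPRS1, NARS1 and TARS1. In a single condition 43.8% to 63.4% of all genes were called lower. The share of all genes called lower in all 4 was not taken, so the recurrence cannot be set against other genes. With TMM factors YARS2 was called lower in 3 conditions, HARS2 in 2, AARS2 in 1 and EARS2 and LARS2 in 0. The changes without replicate 3 were -1.44, -1.44, -1.75 and -1.53 for YARS2 and -1.19, -1.07, -1.83 and -1.20 for HARS2.

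CARS2 had the smallest fall of the mitochondrial members. It kept 57.6%, 83.1% and 41.0% at 5 h in siCTU2, 89.1%, 87.4% and 89.8% in siGL2, 84.8%, 70.4% and 78.2% in mQ and 100%, 69.5% and 91.2% in pQ, and was called lower only in siCTU2 (-0.72, SE 0.25). Its change was positive in all 4 conditions with TMM factors. Among the cytosolic members CARS1 and MARS1 fell the furthest and HARS1 the least, and with TMM factors the change turned positive for CARS1 in siCTU2 and pQ, for MARS1 in siGL2, mQ and pQ, and for HARS1 in all 4 conditions. CARS1 kept 67.6%, 72.1% and 53.0% in siCTU2, 50.4%, 61.5% and 53.6% in siGL2, 51.1%, 49.6% and 47.0% in mQ and 72.8%, 82.4% and 61.7% in pQ. MARS1 kept 58.8%, 79.3% and 25.1%, 78.4%, 76.6% and 35.6%, 90.9%, 77.8% and 67.5%, and 95.2%, 78.2% and 35.5% in the same order of conditions. In each of the 4 conditions the third replicate of MARS1 was the lowest, and its change in mQ was 0.01 without replicate 3. HARS1 kept 78.4%, 86.3% and 84.8% in siCTU2, 74.0%, 83.2% and 78.6% in siGL2, 77.3%, 76.7% and 65.6% in mQ and 83.5%, 85.7% and 117% in pQ.

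Across the members the number of exons went with the fall in opposite directions in the sets. As a description with no test, Spearman's rho between the exon number and the mean change at 5 h was -0.68 over the 17 cytosolic members and 0.68 over the 14 mitochondrial members, whose values share the same libraries. For the coding length the values were -0.72 and 0.35, and for the 3′ UTR length -0.01 and -0.35. The mitochondrial value includes the 2 genes with the fewest exons, MARS2 and PARS2.

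Decay itself differed between siCTU2 and siGL2 for 21 of 14259 genes (0.147%) and between mQ and pQ for 0 of 14177 (0%) in edgeR, where the unadjusted p was under 0.05 for 995 and 1690 genes. No member was called in either. Before adjustment, 1 mitochondrial member was under 0.05 in the siRNA experiment, and 3 cytosolic and 3 mitochondrial members were under it in the medium experiment. The 1 member in the siRNA experiment was RARS2, described here after its values were seen. In siCTU2 26.9%, 36.3% and 29.9% of RARS2 was left at 3 h and 12.5%, 22.7% and 8.55% at 5 h. In siGL2 72.1%, 76.5% and 68.4% was left at 3 h and 85.4%, 66.5% and 45.0% at 5 h. The siCTU2 libraries were below the siGL2 libraries at both times without overlap, and the difference in log2 change at 5 h was -2.14 (SE 0.54, edgeR adjusted p = 0.111). Without replicate 3 the difference was called (-2.31, SE 0.34, edgeR adjusted p = 0.000225), as were 1.44% of all genes, and with 3 h in place of 5 h it was not (-1.22, edgeR adjusted p = 1). Leaving out replicate 3 gave 757 called genes of 14132 (5.36%) for the medium, among them FARSA (-0.72), AARS2 (-0.89), IARS2 (0.69) and MARS2 (1.87, SE 0.52, edgeR adjusted p = 0.0325).

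**Figure D5:**
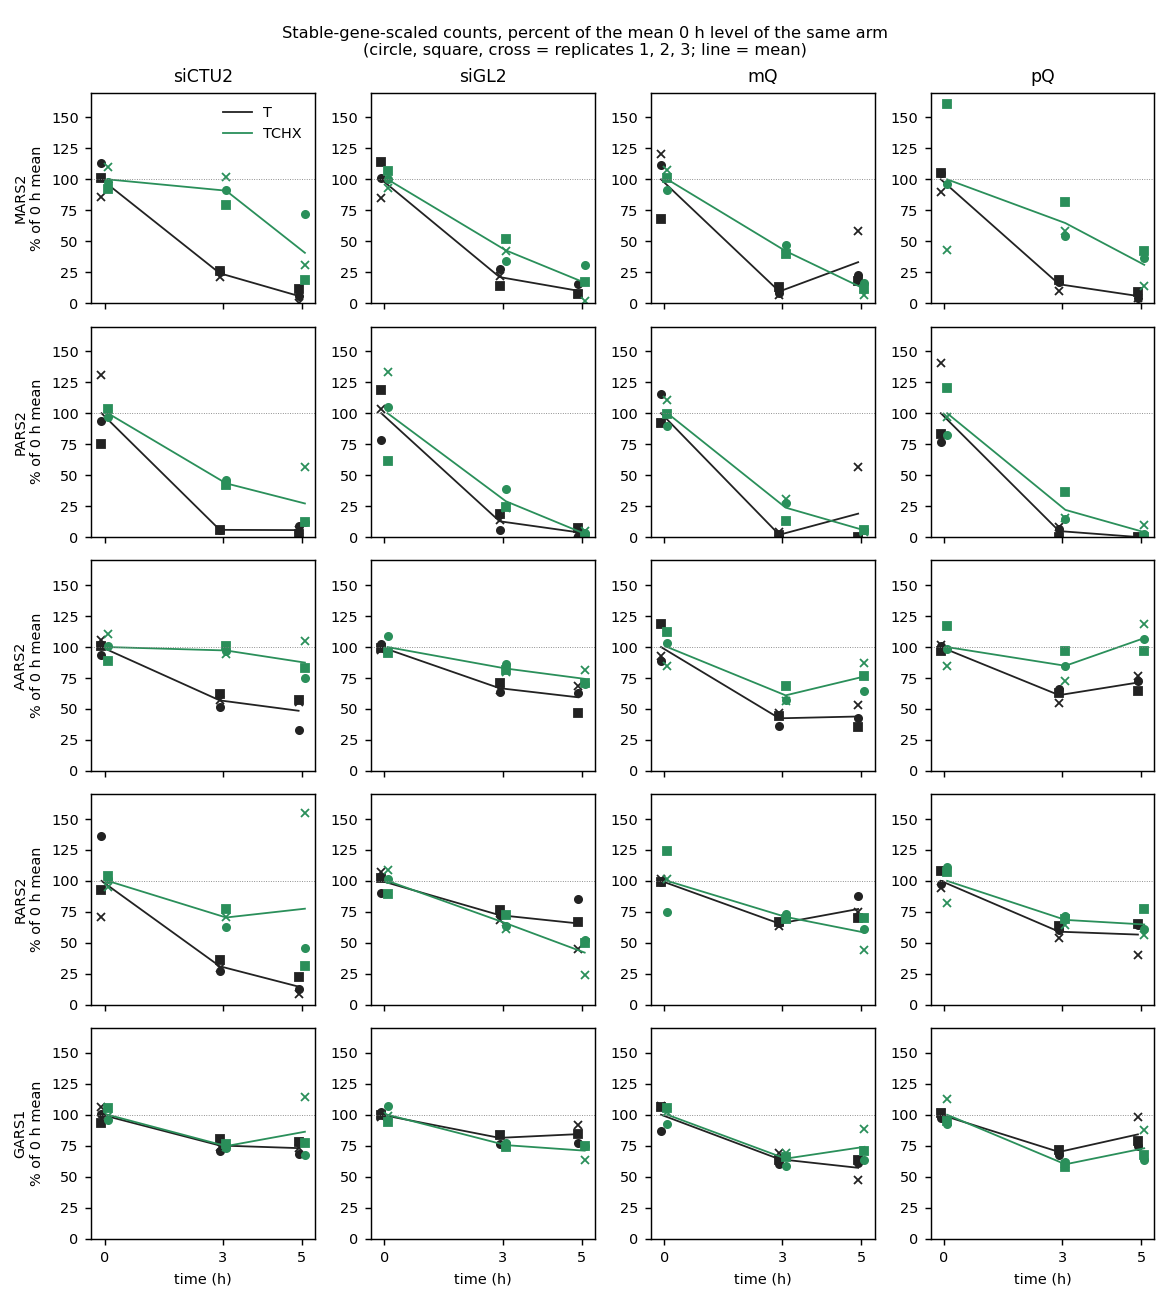
Scaled counts as percent of the 0 h mean of the same arm (vertical axis) at 0, 3 and 5 h in the T and TCHX arms of each condition for MARS2, PARS2, AARS2, RARS2 and GARS1, with 1 point per library and lines through the means of 3. MARS2 at 3 h lies at 6.98% to 27.3% in the T arm and 33.9% to 102% in the TCHX arm; RARS2 and GARS1 were chosen for this plot after their values were seen.

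The comparison of the TCHX with the T arm asks which mRNAs were lost more slowly when translation was blocked. The effect of cycloheximide was taken as the mean difference between the arms at 3 and 5 h. The cytosolic set had 0 members called higher in each of the 4 conditions, with median effects of 0.09 in siCTU2, -0.04 in siGL2, 0.03 in mQ and -0.05 in pQ, against 0.22, 0.05, 0.05 and 0.06 for all genes. At an unadjusted p under 0.05 there were 0, 1, 4 and 1 of the 17 cytosolic members in edgeR, against 30.8%, 21.4%, 19.1% and 21.5% of all genes. The mitochondrial set had medians of 0.52, 0.20, 0.19 and 0.15, and 8 of 14 members were called higher in siCTU2 (21.0% of all genes were), 2 in siGL2 (12.1%), 1 in mQ (5.12%) and 5 in pQ (12.3%).

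Without replicate 3 the mitochondrial counts were 5, 5, 6 and 4, against 15.8%, 16.6%, 23.9% and 14.6% of all genes. MARS2, AARS2 and YARS2 were then called higher in all 4 conditions, HARS2 in 3, PARS2 in 2 and RARS2, EARS2 and WARS2 in 1 each. The share of all genes called higher in several conditions was not taken. Among the cytosolic members FARSA was called higher in siGL2 (0.28) and mQ (0.33) and CARS1 in mQ (0.45). Called lower were IARS2 in siGL2 (-0.33; 2.99% of all genes) and KARS1 and WARS1 in pQ (-0.24 and -0.23; 2.16%).

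The effect on MARS2 was positive in all 4 conditions, at 1.05 in siGL2 (edgeR adjusted p = 0.0942), 1.94 in siCTU2 (SE 0.36, edgeR adjusted p = 0.000688), 1.30 in mQ (SE 0.31, edgeR adjusted p = 0.0207) and 1.89 in pQ (SE 0.33, edgeR adjusted p = 0.000562). In the TCHX arm 91.2%, 79.6% and 102% of its 0 h level was left at 3 h in siCTU2, 33.9%, 51.7% and 42.4% in siGL2, 46.8%, 40.0% and 39.6% in mQ and 54.0%, 81.4% and 58.7% in pQ. All of these lay above the T libraries of the same condition given earlier. At 5 h the TCHX values were 72.4%, 18.8% and 30.9%, 31.2%, 17.0% and 1.49%, 16.6%, 11.8% and 6.29%, and 36.6%, 42.2% and 14.2%. The arms overlapped at 5 h in siGL2, and in mQ all TCHX libraries were below all T libraries. These percentages are relative to the 0 h level of each arm, whereas the effect compares the arms directly: with the difference between the arms at 0 h subtracted it was 0.32 in mQ (edgeR adjusted p = 0.83), 2.32 in siCTU2 (edgeR adjusted p = 0.0201) and 2.27 in pQ (edgeR adjusted p = 0.0157). Without replicate 3 the effect was 1.66, 1.23, 1.74 and 1.89 in siCTU2, siGL2, mQ and pQ and was called in each.

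AARS2 was called in siCTU2 (0.63, SE 0.14, edgeR adjusted p = 0.00233), siGL2 (0.54, SE 0.10, edgeR adjusted p = 0.00129) and pQ (0.35, SE 0.11, edgeR adjusted p = 0.0438). At 3 h 51.3%, 62.4% and 57.1% of its 0 h level was left in the T arm of siCTU2 and 96.7%, 101% and 94.3% in the TCHX arm. In siGL2 63.7%, 71.3% and 65.4% was left in the T arm and 86.7%, 81.8% and 79.6% in the TCHX arm. In mQ 36.4%, 44.6% and 46.4% was left in the T arm and 57.5%, 68.9% and 56.6% in the TCHX arm, and in pQ 66.1%, 63.0% and 54.4% against 84.6%, 97.2% and 72.8%. The arms did not overlap at 3 h in any condition, and the TCHX values were the higher ones throughout.

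At 5 h AARS2 was at 32.7%, 57.4% and 55.6% in the T arm of siCTU2 and at 74.9%, 82.9% and 105% in its TCHX arm, at 62.9%, 46.5% and 68.8% against 70.2%, 71.2% and 81.6% in siGL2, at 43.0%, 35.1% and 53.6% against 64.6%, 76.8% and 87.4% in mQ, and at 72.9%, 64.3% and 76.8% against 106%, 97.0% and 118% in pQ. The TCHX libraries were above the T libraries without overlap at this time also. With the 0 h difference subtracted AARS2 was called in siCTU2 (0.81, edgeR adjusted p = 0.042) and not in siGL2 (0.32, adjusted p = 0.61) or pQ (0.53, adjusted p = 0.14), and with TMM factors its effect was 0.25 to 0.46 and passed in no condition. Without replicate 3 its effect was 0.62, 0.57, 0.56 and 0.35 in siCTU2, siGL2, mQ and pQ, called in each. HARS2 was called in siCTU2 (0.55), siGL2 (0.61) and pQ (0.56), the first without a call when replicate 3 was left out (0.34), and YARS2 in siCTU2 (0.67) and pQ (0.61). PARS2 was called in siCTU2 (2.47) and pQ (3.20), where its fitted value depends on the prior count because the T arm had no count at 5 h, and its values in siGL2 (-0.07) and mQ (0.79) did not pass. CARS2 (0.53) and EARS2 (0.51) were called in siCTU2 only, which was not tested as a difference between conditions beyond the siRNA and medium comparisons below.

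CARS1 and FARSA were the cytosolic members with the lowest mean p rank, and with all replicates neither passed in any condition. In mQ 47.3%, 53.1% and 55.9% of CARS1 was left at 3 h in the T arm and 75.6%, 78.4% and 63.4% in the TCHX arm, but in pQ 100%, 99.9% and 67.4% was left in the T arm and 49.1%, 57.7% and 46.5% in the TCHX arm, whose 0 h mean includes the library that stood apart. The TCHX arm of CARS1 was thus the higher one at 3 h in mQ and the lower one in pQ. FARSA at 3 h was at 56.7%, 59.2% and 52.5% in the T arm and 68.9%, 77.5% and 66.0% in the TCHX arm of mQ, and at 77.5%, 82.5% and 70.1% against 102%, 102% and 79.7% in siGL2. Its groups overlapped in siGL2 and not in mQ.

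The difference in the cycloheximide effect between siCTU2 and siGL2 was called for 54 of 14259 genes (0.379%), and RARS2 was the 1 member among them (1.65, SE 0.38, edgeR adjusted p = 0.0436). In siCTU2 the effect on RARS2 was 1.51 (SE 0.32, edgeR adjusted p = 0.00209). The TCHX arm kept 63.0%, 77.4% and 70.9% of RARS2 at 3 h in siCTU2 and 45.9%, 31.5% and 155% at 5 h, the last in the library that went against its label, while siGL2 kept 63.4%, 72.5% and 61.5% at 3 h and 52.2%, 50.2% and 23.9% at 5 h. The difference was 1.15 (edgeR adjusted p = 0.101) without the libraries that stood apart, 0.96 (adjusted p = 0.102) without replicate 3, and was not called without replicate 1 or 2 either. Between mQ and pQ the effect differed in 0 of 14177 genes (0%; 525 at an unadjusted p under 0.05 in edgeR).

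A translation-dependent decay (TDD) index, the share of an mRNA lost in the T arm but kept in the TCHX arm, relative to its amount at 0 h, was tested with a linear model at an unadjusted p of at most 0.05. In siCTU2 against siGL2 it was higher for MARS2 (0.24), PARS2 (0.23), RARS1 (0.11) and TARS1 (0.08), 4 of 31 members, against 7.28% of all 12288 genes, and in mQ against pQ for FARSA (0.23) and AARS1 (0.11), 2 of 31, against 3.48% of 12428 genes. None of these 6 values passed after Benjamini-Hochberg adjustment over all genes, where the adjusted p of the linear model was 0.545 to 0.727.

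From 0 to 5 h in the T arm the ratio of the summed cytosolic to the summed mitochondrial CPM rose by 0.71 (SD between libraries 0.24) on the log2 scale in siCTU2, by 0.46 (0.21) in siGL2 and by 0.45 (0.19) in pQ. In mQ, where it had started highest, the difference was 0.07 (0.14) and the times overlapped. Without replicate 3 the differences were 0.55 in siCTU2, 0.33 in siGL2, 0.298 in pQ and 0.15 in mQ. Of the genes beside the synthetases, 11, 9, 8 and 10 of 14 were called lower at 5 h in siCTU2, siGL2, mQ and pQ, against 63.4%, 47.4%, 43.8% and 51.8% of all genes. In the TCHX arm EEF1E1 (1.23), GATC (0.68) and PTRH2 (0.53) were called higher in siCTU2 (21.0% of all genes were) and PTRH2 (0.60) and SEPSECS (1.04) in pQ (12.3%).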

How the data were processed

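Cytoplasmic RNA of A375 cells was made into QuantSeq 3′ libraries. The authors trimmed reads with fastp 0.20.1, aligned them with HISAT2 2.2.1 to GRCh38.p13 and counted them per gene with htseq-count 0.13.5. The deposited table holds these raw counts for 72 libraries, with no further normalization. The strand setting and any use of molecular identifiers are not given in the sources used here, so floors cover counting error only. The labels do not say that replicates were separate cultures, so p-values measure only the spread between these libraries, which may be technical. No 2 replicates held identical counts, and the lowest chi-square per degree of freedom between replicates was 4.30. Gene counts per library ran from 5987692 to 15534331, and their CPM (counts scaled to 1000000) are printed as levels.

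The members and lists were chosen with earlier results of these data known. Libraries were grouped by their labels. Values by library are given for the members with the smallest p at 0 h (5 cytosolic and 3 mitochondrial members and EPRS1 for mQ against pQ, 3 of each set for siCTU2 against siGL2), for 2 members of each set with the largest and 1 with the smallest mean fall at 5 h, and for 2 members of each set with the smallest mean p rank under cycloheximide. Other members were chosen after their values were seen.

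Tests were two-sided quasi-likelihood F-tests in edgeR 4.0.16 (R 4.3.3) with filterByExpr and Benjamini-Hochberg adjustment over all genes tested. TMM factors were used at 0 h. At later times the size factors came from genes that met the rule of the study for stable genes in every replicate: over 0.2 CPM at 0 h, at 3 or 5 h a CPM of at least 1.1 times that at 0 h, and a CPM at 0 h over 0.1 times the later one. Their share of the library therefore rose with time, and the scaling holds them constant. The siRNA experiment had 198 such genes (197 used, with 4.30% of all counts) and the medium experiment 82 (81 used, with 2.51%). No member was among them. Decay was T at 5 h against T at 0 h in a fit of the 18 libraries of a condition, and differences between conditions were interaction terms over 36 libraries. Genes with a mean scaled count of at least 10 at 0 h entered the linear model of the TDD index, which had condition, time and replicate as terms. The tests were also run on simulated counts modelled on the medium experiment. These had a fixed dispersion and no replicates or libraries that stand apart, so they cannot show how the tests behave with such libraries. Alternatives were DESeq2 1.42.0, TMM factors, stable genes at both times, no filter on low counts, a replicate block, 3 h in place of 5 h, the other arm at 0 h, the 0 h difference subtracted, and leaving out replicates or libraries.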

Additional observations from a re-analysis of the deposited data

Results flagged for a closer look

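These results differed between 2 conditions by a test of the difference itself. RARS2, the mitochondrial arginyl enzyme, had a larger cycloheximide effect in siCTU2 than in siGL2, by 1.65 on the log2 scale (SE 0.38, edgeR adjusted p = 0.0436, 3 libraries per group). The call was lost when any of the 3 replicates was left out, with differences of 0.96 to 2.196 and edgeR adjusted p of 0.102 to 0.514, and without the libraries that stood apart (1.15, edgeR adjusted p = 0.101). The difference was positive each time. In the siCTU2 TCHX group at 5 h the library that went against its label held 155% of the 0 h mean of RARS2, against 45.9% and 31.5% in the others.

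The TDD index, the share of the 0 h amount that was kept when translation was blocked and lost when it was not, was higher in siCTU2 than in siGL2 for MARS2 by 0.24, for PARS2 by 0.23, for RARS1 by 0.11 and for TARS1 by 0.075 in a linear model at an unadjusted threshold of 0.05. It was higher in mQ than in pQ for AARS1 by 0.11 and for FARSA by 0.23. With TMM factors the difference of TARS1 was -0.018 and neither cytosolic member, RARS1 or TARS1, passed. None of these passed after Benjamini-Hochberg adjustment over all genes, where the values were 0.545 to 0.727, and the values of 1 experiment rest on the same libraries.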

How the results depend on the processing

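Of 340 alternative values of counts of called members and of ratios, 240 stayed within their limits, 59 were weaker, 34 stronger and 7 moved. A weaker or stronger count had fewer or more called members beyond a set fold limit. A ratio moved when it differed from the main value by at least the SD between libraries. Of 787 alternative values of single members, 591 kept direction and call, 137 kept direction and lost the call, 33 kept direction and gained a call, and 26 changed sign. Size of the change did not enter these labels for single members. The cause was not tested for any of them. The share of all genes called also moved with the setting. For the cycloheximide effect without replicate 3 it went from 5.12% to 23.9% in mQ and from 21.0% to 15.8% in siCTU2. The counts of called members below are given without that share, so they do not show whether the members moved apart from other genes. At 0 h the number of cytosolic members called in siCTU2 (4) became 7 with both arms, and the number of mitochondrial members called lower in mQ (2) became 0 in the TCHX arm, 1 with both arms and 1 in the TCHX arm without pQ replicate 3, the last an alternative chosen after seeing the data. The log2 difference of the set ratio at 0 h was 0.42 in the TCHX arm and 0.30 with both arms for siCTU2 (0.17 as reported), and 0.67, 0.83 and 0.85 in the TCHX arm, with both arms and in the TCHX arm without pQ replicate 3 for mQ (0.99). The change of the ratio with time was 0.35 at 3 h in siCTU2 (0.71 at 5 h) and 0.15 in siGL2 (0.46). The alternatives for the ratios were also chosen after seeing the data.

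With TMM factors the cytosolic members called lower at 5 h went from 12, 9, 13 and 6 in siCTU2, siGL2, mQ and pQ to 0 in each, and the mitochondrial members from 14, 9, 8 and 11 to 5, 3, 1 and 4. With 3 h in place of 5 h the cytosolic members called lower numbered 7 (siCTU2), 4 (siGL2) and 12 (pQ). With genes stable at both times 14 cytosolic members were called lower in siGL2 and 13 mitochondrial members in mQ, and with no filter on low counts 3 cytosolic members each in siGL2 and pQ. Only 8 genes in the siRNA experiment (0.0188% of all counts) and 3 in the medium experiment (0.00953%) were stable at both times. Every value given with that setting rests on these few genes. The mitochondrial members whose decay differed between conditions (0 in each experiment) became 1 with TMM factors, 1 with no filter and 1 without the doubted libraries for siCTU2 against siGL2, and 2 with no filter for mQ against pQ.

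For the cycloheximide effect the mitochondrial members called higher in siCTU2 (8) became 1 at 3 h alone, 4 with the 0 h difference subtracted, 3 with TMM factors and 5 without the doubted libraries, which are the 3 that stood apart. Those in siGL2 (2) became 0 at 3 h alone, 0 with the 0 h difference subtracted, 1 with genes stable at both times and 4 with no filter. Those in mQ (1) became 0 with the 0 h difference subtracted, 2 with TMM factors, 3 with genes stable at both times, 2 with no filter and 6 without the doubted libraries, and the cytosolic members there (0) became 1 with genes stable at both times and 2 without the doubted libraries. Those in pQ (5) became 1 at 3 h alone, 1 with the 0 h difference subtracted, 3 with TMM factors and 2 with genes stable at both times. The 1 member whose effect differed between siCTU2 and siGL2 became 0 at 3 h alone, 0 with the 0 h difference subtracted, 0 with genes stable at both times and 0 without the doubted libraries, and 2 with no filter. The TDD index differed in 0 cytosolic members with TMM factors (2 as reported) and in 6 mitochondrial members with the 0 h library of each arm (2) for siCTU2, and in 1 and 4 cytosolic members (2) and 2 mitochondrial members (0) with these settings for mQ.

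Same-numbered replicates of a condition and its control deviated together in some groups and not in others. Over 12 comparisons of the same arm and time the correlation of their deviations ran from -0.26 to 0.85, and in 5 of the 12 every pair was over 0.1. In the 0 h libraries of the T arm the values were 0.06, 0.14 and 0.25 in the siRNA experiment and 0.11, -0.14 and -0.13 in the medium experiment. The labels do not say that a number marks a shared day or culture, so the numbers were not taken as pairs in the main edgeR tests. The TDD index and the rule for stable genes did join libraries of the same replicate number, so those values rest on the numbering. With a replicate block the cytosolic members called at 0 h in siCTU2 went from 4 to 7, those called lower at 5 h in pQ from 6 to 11, and the members with a cycloheximide effect in mQ from 0 to 1 (cytosolic) and from 1 to 2 (mitochondrial). At 0 h in mQ the replicate block gave 10 cytosolic members called higher and 2 mitochondrial members called lower. With no replicate block the TDD index differed in 1 cytosolic member in siCTU2 and 1 mitochondrial member in mQ.

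Leaving out replicates in turn gave 3 to 5 cytosolic and 4 to 5 mitochondrial members called at 0 h in siCTU2, and 10 to 11 cytosolic members higher and 1 to 2 mitochondrial members lower in mQ. For decay it gave 3 to 11 cytosolic and 10 to 14 mitochondrial members in siCTU2, 0 to 13 and 5 to 10 in siGL2, 0 to 13 and 0 to 11 in mQ, and 0 to 11 and 7 to 12 in pQ. For the cycloheximide effect it gave 2 to 7 mitochondrial members in siCTU2, 0 to 5 in siGL2, 0 to 6 in mQ and 0 to 4 in pQ, with 0 to 1 cytosolic members in siGL2 and 0 to 2 in mQ. For the differences between conditions it gave 0 to 1 mitochondrial members in decay for siCTU2, 0 to 1 cytosolic and 0 to 3 mitochondrial members in decay for mQ, and 0 in the cycloheximide effect for siCTU2. For the TDD index it gave 0 to 2 cytosolic and 1 to 3 mitochondrial members in siCTU2 and 2 to 4 and 0 to 1 in mQ. The log2 difference of the set ratio between mQ and pQ was 0.85 to 1.02.

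Of the 26 changes of sign 13 were those of decay with TMM factors: CARS1 0.24, HARS1 0.66 and CARS2 0.11 in siCTU2, MARS1 0.025, HARS1 0.41 and CARS2 0.58 in siGL2, MARS1 0.32, HARS1 0.20 and CARS2 0.28 in mQ, and CARS1 0.24, MARS1 0.14, HARS1 0.69 and CARS2 0.53 in pQ. With replicates left out in turn, decay of MARS1 in mQ was -0.52 to 0.012 (the latter without replicate 3), and decay in pQ was -0.25 to 0.067 for HARS1 and -0.37 to 0.029 for CARS2 (both positive without replicate 2). The cycloheximide effect on CARS1 in siCTU2 (0.30) was -0.092 (without replicate 3) to 0.52 with replicates left out in turn and -0.039 at 3 h alone, and in pQ (0.11) it was -0.22 with genes stable at both times, -0.14 at 3 h alone and -0.56 with the 0 h difference subtracted. That on FARSA in siCTU2 (0.02) was -0.25 with TMM factors, -0.032 with the 0 h difference subtracted, and -0.055 to 0.12 with replicates left out in turn (negative without replicate 1 or 2). The TDD index difference of TARS1 was -0.018 with TMM factors. Low counts limit some members: IARS1, VARS1, SARS2 and VARS2 were at 0 to 6 counts in libraries where most other members were well counted, and why was not tested, and PARS2 was at 0 in some libraries at 5 h.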
